A study of Mus musculus with 6 samples.

Results

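The interferon regulatory factors (IRFs) are transcription factors that link the sensing of microbial nucleic acids, and of the interferons made in response, to gene expression. The 8 genes Irf1, Irf2, Irf3, Irf4, Irf5, Irf7, Irf8 and Irf9 were taken by name from a table of 47729 genes measured in mouse spleen, and all 8 were among the 15330 genes that passed the filter on low counts. The table held RNA-seq read counts of 3 NOD.B10 females and 3 BL/10 females. NOD.B10 (NOD.B10Sn-H2b/J) is an inbred strain that develops a disease resembling primary Sjögren's syndrome and was taken with clinical disease, and BL/10 (C57BL/10SnJ) is the healthy control strain. Both strains were untreated and without an engineered allele, so the groups differ in strain background and no single locus separates them. The libraries are labelled as biological replicates. The question the design addresses is which genes differ between spleens of a diseased strain and of a healthy strain. Disease and strain cannot be told apart in it.

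The labels limit how the groups can be read. In each of the 6 records the strain given by the title and strain field is the opposite of that given by the description and by the column of the count table. The strain of the column was used, and every direction given would be reversed under the titles. For BL/10 replicate 3 the match of column and description rests on the library number and strain, because the rest of the name differs. The age was 26 weeks in the records of the NOD.B10 libraries and BL/10 replicate 1, but 36 weeks in the records of BL/10 replicates 2 and 3. Among these BL/10 libraries age and library cannot be told apart. The titles of the records at 36 weeks name NOD.B10, and the age was kept with the library. Whether the age belongs with the title or with the column was not tested. The study's methods describe BL/10 controls matched in age to NOD.B10 females of 26 weeks, which differs from the recorded 36 weeks.

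The depth of the libraries was between 15662712 and 18298451 counted reads, so a floor of 3 counts is far below the level of all 8 genes, whose lowest count in a library was 530 (Irf7, NOD.B10 replicate 2). The tissue carried the markers of spleen, with 6 B cell markers summing to 2291 to 4239 CPM (reads of a gene relative to all counted reads, scaled with TMM factors) in the 6 libraries. BL/10 replicate 1 stood apart from the other libraries. Its 6 pancreas acinar markers summed to 8954 CPM, against 1347 and 98.0 CPM in BL/10 replicates 2 and 3 and 21.2 to 30.4 CPM in NOD.B10, and its counts differed from those of the other BL/10 libraries by a chi-square of 59.6 and 76.0 per degree of freedom, against 12.5 to 27.6 for the other pairs within a strain. The difference of each member is therefore also given without it. That fit sets NOD.B10 libraries recorded at 26 weeks against BL/10 libraries recorded at 36 weeks. Strain and recorded age cannot be told apart in it.

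All IRFs share a DNA-binding domain that recognises the GAAA repeats of interferon-stimulated response elements. Irf3 and Irf7 are held in the cytoplasm until they are phosphorylated downstream of Toll-like receptors and cytoplasmic sensors, and then induce type I interferon genes. Secreted interferon acts through its receptor to assemble a complex that binds DNA through Irf9 and raises interferon-stimulated genes, Irf7 among them. Irf1 is induced by interferon-gamma and activates genes of cell-intrinsic defence and antigen presentation, and Irf2 binds the same sites and often opposes it. Irf5 acts below Toll-like receptors on inflammatory cytokine genes. Irf4 and Irf8 are lineage factors of lymphocytes, plasma cells and myeloid cells that bind DNA with partners. In the spleen the family as a whole is used across B cells, T cells and myeloid cells, but not every gene in each of them.

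Of the 8 genes, 4 passed the test between strains (edgeR quasi-likelihood, Benjamini-Hochberg adjusted p under 0.05 over all tested genes). Irf7 and Irf9, which act in the type I interferon loop, were lower in NOD.B10, and Irf1 and Irf4 were higher. Among all tested genes 17.3% passed, 9.11% higher and 8.22% lower in NOD.B10. The libraries of the strains did not overlap for 5 of the 8 genes, the fifth being Irf3, against 38.0% of all tested genes. In each of the 4 genes that passed, BL/10 replicate 1 was the BL/10 library nearest to the NOD.B10 libraries. In bulk RNA, fewer cells of a type and less RNA per cell cannot be told apart.

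**Figure D1:**
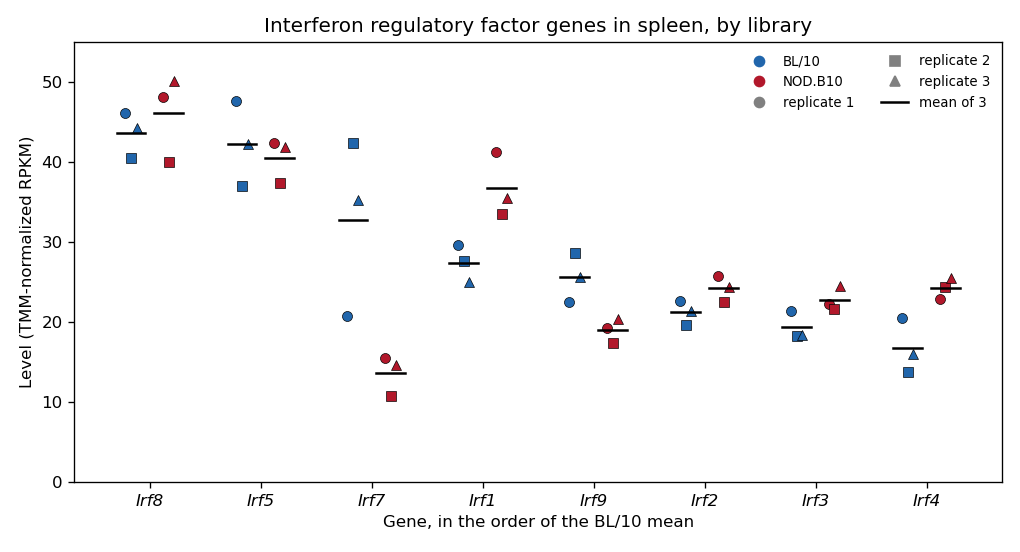
Levels of the 8 genes in each library as RPKM (CPM divided by gene length in kilobases, linear axis), with BL/10 in blue, NOD.B10 in red, a symbol for each replicate and a line at the mean of 3 libraries. Irf7 was at 20.8 to 42.4 RPKM in BL/10 and at 10.8 to 15.6 RPKM in NOD.B10, whereas the libraries of Irf8 and Irf5 overlapped between strains.

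Levels of different genes were compared as RPKM, with the length of each gene taken from the count table. In BL/10 the mean level was 43.7 ± 2.87 RPKM for Irf8 (SD, n = 3, as for all means below), 42.3 ± 5.32 RPKM for Irf5 and 32.8 ± 11.03 RPKM for Irf7. The other means in BL/10 were 27.4 RPKM for Irf1, 25.6 RPKM for Irf9, 21.2 RPKM for Irf2, 19.3 RPKM for Irf3 and 16.8 RPKM for Irf4. Each neighbour in this order overlapped the next in its range over libraries, so that no step of the BL/10 order was larger than the spread. In NOD.B10 the order was Irf8 (46.1 ± 5.40 RPKM), Irf5 (40.5 ± 2.78 RPKM), Irf1 (36.8 ± 4.07 RPKM), Irf4 (24.3 ± 1.32 RPKM), Irf2 (24.3 ± 1.64 RPKM), Irf3 (22.8 ± 1.56 RPKM), Irf9 (19.04 ± 1.49 RPKM) and Irf7 (13.6 ± 2.53 RPKM). Here the ranges parted between Irf1 and Irf4, between Irf3 and Irf9, and between Irf9 and Irf7. Irf7 thus had the lowest mean of the 8 genes in NOD.B10, and Irf4 had the lowest mean in BL/10.

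Irf7, at chr7:141262706-141266481 on the minus strand (GRCm38, as are all coordinates), encodes the factor that amplifies type I interferon production and is itself interferon-inducible. Its level was 47.0, 32.6 and 44.1 CPM in NOD.B10 replicates 1 to 3 and 62.7, 128 and 107 CPM in BL/10 replicates 1 to 3. All NOD.B10 libraries were below all BL/10 libraries, and the BL/10 libraries were spread more widely than those of NOD.B10. The mean was 41.2 ± 7.65 CPM against 99.2 ± 33.3 CPM, which was 2.40-fold lower in NOD.B10 (log2 fold change -1.27, SE 0.26, edgeR adjusted p = 0.0155). Without BL/10 replicate 1 the log2 fold change was -1.52 (SE 0.16, adjusted p = 0.00109). The adjusted p rose to 0.0559 without NOD.B10 replicate 3 and to 0.0502 without BL/10 replicate 3, with log2 fold changes of -1.32 and -1.21. With the age of the record as a term, which leaves BL/10 replicate 1 as the comparison for strain, the log2 fold change was -0.61 (SE 0.20, adjusted p = 0.156).

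Irf9, at chr14:55603571-55610030 on the plus strand, encodes the DNA-binding subunit of the complex formed below the type I interferon receptor. Its level was 104, 93.8 and 110 CPM in NOD.B10 replicates 1 to 3 and 121, 155 and 138 CPM in BL/10 replicates 1 to 3, again without overlap. The mean was 103 ± 8.04 CPM in NOD.B10 and 138 ± 16.7 CPM in BL/10, a 1.34-fold difference (log2 fold change -0.43, SE 0.11, edgeR adjusted p = 0.0405). The call of Irf9 was lost with the age term (adjusted p = 0.381) and on leaving out NOD.B10 replicate 1, 2 or 3 (adjusted p = 0.127, 0.111 and 0.0790) or BL/10 replicate 2 or 3 (adjusted p = 0.109 and 0.0806), while without BL/10 replicate 1 the log2 fold change was -0.52 (adjusted p = 0.00997). Exons of Rnf31 cover 2.28% of the exon bases of Irf9 on the same strand, and reads on more than 1 gene were not counted.

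Irf3, at chr7:44997648-45002848, the constitutively made partner of Irf7 in interferon induction, was at 76.5, 74.4 and 84.6 CPM in NOD.B10 and 73.6, 62.8 and 63.3 CPM in BL/10. The libraries did not overlap, but the difference did not pass (log2 fold change 0.24, SE 0.10, edgeR adjusted p = 0.132). Without BL/10 replicate 1 it did (log2 fold change 0.31, adjusted p = 0.0445). The RPKM of Irf7 relative to that of Irf3 was therefore compared within each library, a ratio that does not depend on library size. The ratio was 0.700, 0.499 and 0.594 in NOD.B10 replicates 1 to 3 and 0.971, 2.33 and 1.92 in BL/10 replicates 1 to 3. The ranges did not overlap, but Irf7 was lower and Irf3 higher in every NOD.B10 library, which fixed this split in advance. The ratio is therefore no separate evidence. An exact two-sided permutation test of 3 against 3 cannot give a p below the 0.1 found here. The ratio of Irf9 to Irf7 was also split by strain, at 1.24 to 1.62 in NOD.B10 and 0.677 to 1.08 in BL/10 (exact permutation p = 0.1), so that Irf7 was lower relative to Irf9 in every NOD.B10 library.

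Irf1, at chr11:53770014-53778374 on the plus strand, was at 164, 133 and 141 CPM in NOD.B10 replicates 1 to 3 and 118, 110 and 99.4 CPM in BL/10 replicates 1 to 3. Every NOD.B10 library was above every BL/10 library. The mean was 146 ± 16.2 CPM in NOD.B10 and 109 ± 9.25 CPM in BL/10, which was 1.34-fold higher in NOD.B10 (log2 fold change 0.42, SE 0.11, edgeR adjusted p = 0.0390). Irf2, at chr8:46739732-46847458, overlapped between strains, with 76.8 to 87.9 CPM in NOD.B10 and 67.0 to 76.8 CPM in BL/10 (log2 fold change 0.19, SE 0.09, adjusted p = 0.178, and 0.23 without BL/10 replicate 1). The ratio of Irf1 to Irf2 in RPKM was 1.46 to 1.60 in NOD.B10 and 1.17 to 1.40 in BL/10 (exact permutation p = 0.1). The call of Irf1 was lost with the age term (log2 fold change 0.31, adjusted p = 0.320), without NOD.B10 replicate 1 or 3 (adjusted p = 0.144 and 0.0831) and without BL/10 replicate 2 or 3 (adjusted p = 0.0927 and 0.107). Without BL/10 replicate 1 the log2 fold change was 0.47 (adjusted p = 0.0212).

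Irf4, at chr13:30749226-30766927, a factor of activated lymphocytes and plasma cells, was at 108, 115 and 120 CPM in NOD.B10 replicates 1 to 3 and 96.9, 64.7 and 75.5 CPM in BL/10 replicates 1 to 3. The strains did not overlap, and BL/10 replicate 1 lay close to NOD.B10 replicate 1. The mean was 115 ± 6.24 CPM in NOD.B10 and 79.0 ± 16.4 CPM in BL/10, a 1.45-fold increase (log2 fold change 0.53, SE 0.15, edgeR adjusted p = 0.0431). Without BL/10 replicate 1 the log2 fold change was 0.70 (adjusted p = 0.00445). The call was lost with the age term (log2 fold change 0.24, adjusted p = 0.379), on leaving out NOD.B10 replicate 1, 2 or 3 (adjusted p = 0.101, 0.0905 and 0.137) or BL/10 replicate 2 or 3 (adjusted p = 0.0986 and 0.130), and where at least 10 counts were required in every library (adjusted p = 0.0542).

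Irf8, at chr8:120736358-120756694, which works in B cells, dendritic cells and monocytes, and Irf5, at chr6:29526625-29541871, did not pass. Irf8 ranged from 282 to 354 CPM in NOD.B10 and from 286 to 326 CPM in BL/10 (log2 fold change 0.08, SE 0.12, edgeR adjusted p = 0.683, and 0.11 without BL/10 replicate 1). Irf5 ranged from 109 to 123 CPM in NOD.B10 and from 107 to 138 CPM in BL/10 (log2 fold change -0.06, SE 0.11, adjusted p = 0.741, and 0.023 without BL/10 replicate 1). For both, the NOD.B10 mean lay within the range of the BL/10 libraries. The ratio of Irf4 to Irf8 in RPKM was 0.475, 0.610 and 0.509 in NOD.B10 and 0.445, 0.338 and 0.362 in BL/10, with no overlap (exact permutation p = 0.1). Exons of Tnpo3 on the opposite strand cover 14.1% of the exon bases of Irf5, the most of the 8 genes, and reads were counted without strand.

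**Figure D2:**
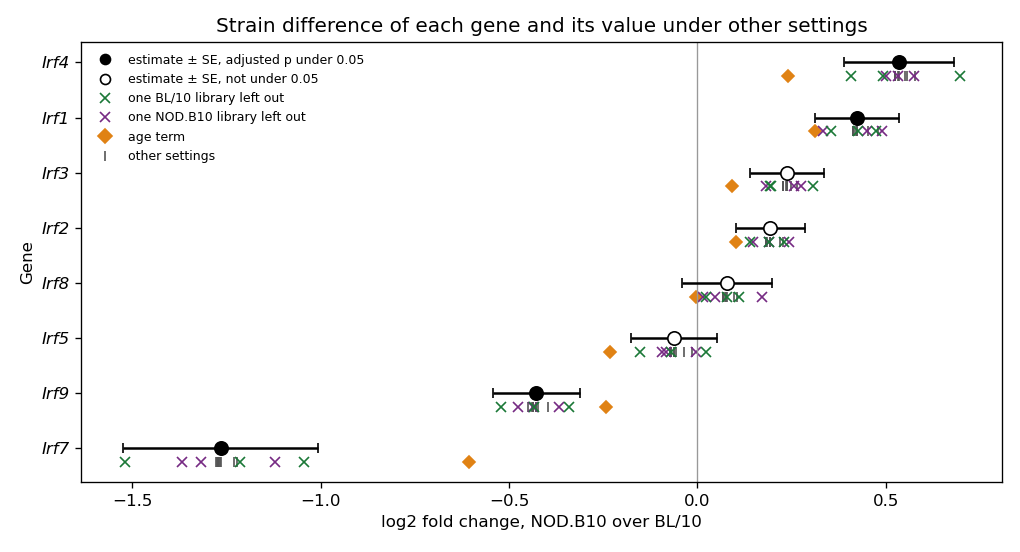
Log2 fold change of each gene, NOD.B10 over BL/10, with its SE as a bar and filled circles where the edgeR adjusted p was under 0.05. Crosses show fits without 1 library, bars other tools, scalings or filters, and diamonds the fit with an age term. Irf7 stayed between -1.52 and -0.61 in the 16 alternatives, and Irf1, Irf4 and Irf9 also kept their direction.

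The genes around the IRFs were described by list. The lists were chosen with earlier results of these data known, so the shares called in them are descriptions and not tests. Of 23 sensors, adaptors and kinases upstream of the IRFs, 3 were higher and 1 was lower in NOD.B10, which is 17.4% of the list and near the 17.3% of all tested genes. Their median log2 fold change was 0.07, against 0.00060 over all tested genes. Ikbke, one of the kinases that phosphorylate Irf3 and Irf7, was at 43.6 ± 8.80 CPM in NOD.B10 and 27.1 CPM in BL/10 (log2 fold change 0.69, SE 0.15, edgeR adjusted p = 0.0208). Tmem173 (Sting), the adaptor of cytoplasmic DNA sensing, rose by 0.64 (SE 0.13, adjusted p = 0.0167) and Tlr8 by 0.44 (SE 0.11, adjusted p = 0.0349) on the log2 scale. Ifih1 (Mda5), a cytoplasmic RNA sensor that is itself interferon-inducible, fell by 1.09 (SE 0.18, adjusted p = 0.00735), from 41.3, 69.0 and 54.3 CPM in BL/10 replicates 1 to 3 to 28.8, 23.8 and 24.7 CPM in NOD.B10 replicates 1 to 3. The count of 3 higher genes was 1 without NOD.B10 replicate 1 or 3 or BL/10 replicate 2, and 0 without BL/10 replicate 3 and with the age term, and the lower count was 2 without BL/10 replicate 1 and 0 with the age term.

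Of 13 interferon receptors, Janus kinases, STATs and their feedback inhibitors, 2 were higher and 1 was lower (23.1%), with a median of 0.12. Socs3, an inhibitor of cytokine receptor signalling, was at 49.5, 45.8 and 37.8 CPM in NOD.B10 and 23.8, 22.6 and 19.9 CPM in BL/10 (log2 fold change 1.00, SE 0.13, edgeR adjusted p = 0.00208). Stat3 rose by 0.50 (SE 0.11, adjusted p = 0.0214). Usp18, an interferon-inducible inhibitor of the type I interferon receptor, fell by 1.02 (SE 0.22, adjusted p = 0.0181). The higher count was 1 without NOD.B10 replicate 1 or 2 or BL/10 replicate 2 or 3, and the lower count was 0 without NOD.B10 replicate 1, 2 or 3. With the age term these counts were 1 and 0.

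The interferons themselves were barely counted. Of 18 interferon genes, 17 were under the filter, 14 of these had no count in any library, and no library had more than 1 count of any of them. Ifng, the exception, was at 0.860 to 2.15 CPM in NOD.B10 and 0.738 to 1.30 CPM in BL/10 (log2 fold change 0.51, SE 0.41, edgeR adjusted p = 0.422). A difference in type I interferon transcripts was not detectable at this depth.

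Type I interferon-stimulated genes, which the complex with Irf9 drives, were largely on the lower side. Of 37 tested, 17 were lower and 0 were higher in NOD.B10 by edgeR, the median log2 fold change was -0.60, and 1 gene was higher at an unadjusted p under 0.05 and 0 by DESeq2, which called 20 lower. The share called was 45.9%, against the 8.22% of all tested genes that were lower. Oas3, which makes the oligoadenylate that activates RNase L, was at 19.9, 13.9 and 14.2 CPM in NOD.B10 replicates 1 to 3 and 38.2, 107 and 75.3 CPM in BL/10 replicates 1 to 3 (log2 fold change -2.20, SE 0.35, adjusted p = 0.00595). Isg15, a ubiquitin-like modifier, was at 57, 46.5 and 38.5 CPM in NOD.B10 and 79.8, 234 and 213 CPM in BL/10 (log2 fold change -1.89, SE 0.37, adjusted p = 0.0137). As with Irf7, every NOD.B10 library was below every BL/10 library for both genes, and BL/10 replicate 1 was the lowest of its strain. Oas1g had 2, 2 and 8 reads in NOD.B10 and 20, 43 and 27 reads in BL/10 (log2 fold change -2.90, SE 0.58, adjusted p = 0.0143), a value that is uncertain because few reads were counted and related Oas1 genes share sequence. The number of lower genes was 22 without BL/10 replicate 1, 10 without NOD.B10 replicate 1, NOD.B10 replicate 3 or BL/10 replicate 2, and 6 with the age term. The 6 neutrophil markers were lower too. Their sums of 5862, 12165 and 10719 CPM in BL/10 replicates 1 to 3 had the same order of libraries as the sums of the list, 2709, 3972 and 3524 CPM. Other markers also set BL/10 replicate 1 apart. The B cell sums were 4239, 2291 and 2432 CPM, which is the reverse order. The erythroid sums were 22065, 42707.5 and 49115 CPM, also lowest in BL/10 replicate 1. In NOD.B10 the sums were 1991 to 2303 CPM for the neutrophil markers and 2259 to 2513 CPM for the list.

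Targets of interferon-gamma and Irf1 were called in both directions. Of 28 tested, 8 were higher (28.6%, against 9.11% of all tested genes), with a median log2 fold change of 0.23. The 3 that were lower made 10.7% of the list, near the 8.22% of all tested genes. Gbp2, a guanylate-binding protein of cell-autonomous defence, was at 132, 84.1 and 97.0 CPM in NOD.B10 and 56.3, 55.1 and 49.3 CPM in BL/10 (log2 fold change 0.96, SE 0.16, edgeR adjusted p = 0.00760). Irgm2, an immunity-related GTPase, was at 120, 133 and 95.8 CPM in NOD.B10 and 56.3, 67.5 and 61.2 CPM in BL/10 (log2 fold change 0.91, SE 0.14, adjusted p = 0.00412). Neither gene overlapped between strains. The near-identical GTPase genes Tgtp2 and Tgtp1 changed in opposite directions, by 1.29 (SE 0.24, adjusted p = 0.0104) and -0.84 (SE 0.23, adjusted p = 0.0424), and both are uncertain because reads that map to both were left out. The cytokine genes Il12b, from 6.52, 6.17 and 4.49 CPM in BL/10 to 1.20, 0.860 and 0.618 CPM in NOD.B10 (log2 fold change -2.68, SE 0.28, adjusted p = 0.000925), and Il15 (-0.94, SE 0.12, adjusted p = 0.00231) fell. The number of higher genes was 9 without BL/10 replicate 1, 5 without BL/10 replicate 2, 3 without NOD.B10 replicate 1 or BL/10 replicate 3, and 1 with the age term. The number of lower genes was 3 without BL/10 replicate 1 or 3 and 2 without each of the other libraries in turn and with the age term, so the balance of higher over lower calls was even without BL/10 replicate 3 and turned with the age term.

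**Figure D3:**
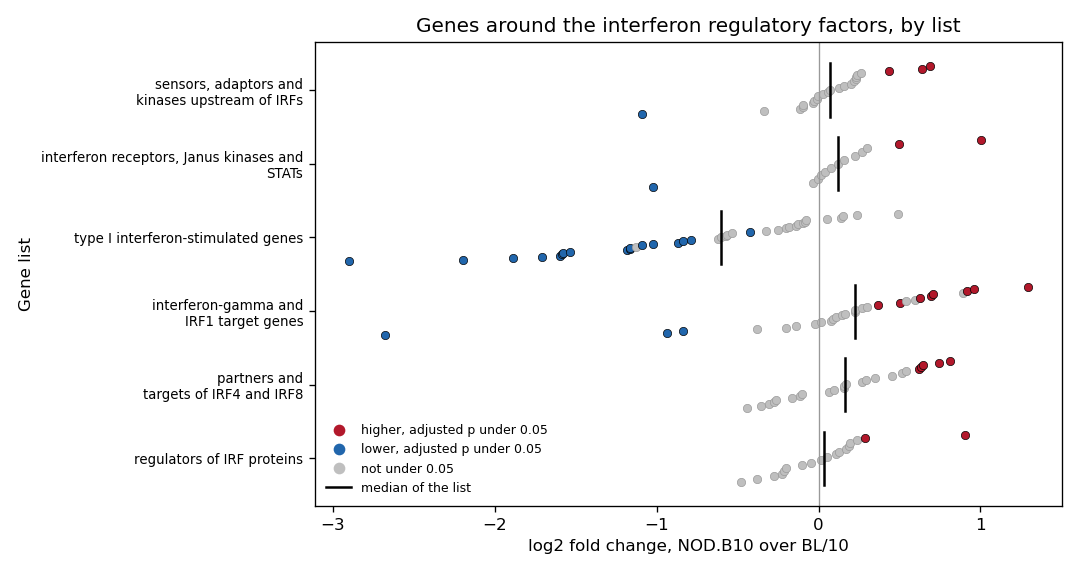
Log2 fold change, NOD.B10 over BL/10, of each tested gene in 6 lists around the IRFs, coloured where the edgeR adjusted p was under 0.05 (red higher, blue lower) and with a line at the median of each list. The type I interferon-stimulated genes have 17 blue points and no red one, and the interferon-gamma and Irf1 targets have 8 red and 3 blue points.

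Of 24 partners and targets of Irf4 and Irf8, 5 were higher (20.8%, against 9.11% of all tested genes) and 0 were lower by edgeR, and the median of the list was 0.16. At an unadjusted p under 0.05, 4 were lower, and DESeq2 called 1 lower. Ets1, a lymphocyte transcription factor that binds beside IRFs, was at 690, 578 and 802 CPM in NOD.B10 and 505, 303 and 373 CPM in BL/10 (log2 fold change 0.81, SE 0.21, adjusted p = 0.0344). Nfatc2, a calcium-dependent factor of T cells that pairs with Irf4, rose by 0.74 (SE 0.11, adjusted p = 0.00376), and Prdm1 (Blimp1), which Irf4 turns on in plasma cells, rose by 0.64 (SE 0.12, adjusted p = 0.00968). The higher count was 9 without BL/10 replicate 1, 3 without NOD.B10 replicate 1 or 3 or BL/10 replicate 2 or 3, and 1 with the age term. Of 18 genes that regulate IRF proteins, Irf2bpl (log2 fold change 0.90, SE 0.16, adjusted p = 0.00834) and Fbxw7 (0.28, SE 0.08, adjusted p = 0.0420) were higher (11.1% of the list) and 0 were lower by edgeR, with 2 lower at an unadjusted p under 0.05. DESeq2 called 1 higher and 1 lower. Fbxw7 was called in 4 of 16 alternatives and in 0 of the 6 fits without a library, and had an adjusted p of 0.0548 by DESeq2. That list had a median of 0.03, and its higher count was 1 without each library but BL/10 replicate 1 and 0 with the age term. Its lower count was 2 without BL/10 replicate 1 and 1 without BL/10 replicate 3, and that of the partners and targets was 2 without BL/10 replicate 1.

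All 21 genes named from these lists kept their direction in every alternative in which they were tested. Without BL/10 replicate 1, 19 were called, the exceptions being Tlr8 (adjusted p = 0.0545) and Fbxw7 (adjusted p = 0.0609). In every fit without 1 library, 11 were called, namely Ifih1, Socs3, Oas3, Gbp2, Irgm2, Tgtp2, Il15, Il12b, Prdm1, Nfatc2 and Irf2bpl. With the age term, 6 were called, namely Socs3, Oas3, Irgm2, Il15, Il12b and Nfatc2.

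Cell markers also differed between strains. All 6 neutrophil markers were lower in NOD.B10, with a sum of 1991 to 2303 CPM against 5862, 12165 and 10719 CPM in BL/10 replicates 1 to 3, so that the BL/10 order of libraries was that of Irf7. Of 6 T cell markers, 5 were higher, with a sum of 508 to 649 CPM in NOD.B10 and 250 to 320 CPM in BL/10. Of 6 plasma cell markers, 5 were higher, with sums of 3225 to 3719 CPM and 2036 to 2587 CPM, and Prdm1 is one of them. The sums of these lists were higher in NOD.B10, as were Irf1 and Irf4. In BL/10 replicates 1 to 3 the T cell sums were 320, 267 and 250 CPM. The plasma cell sums were 2587, 2345 and 2036 CPM. This is the BL/10 order of libraries of Irf1 but not that of Irf4. By edgeR, 0 of 6 B cell markers passed (0 at an unadjusted p under 0.05 and 0 by DESeq2), with sums of 2990 to 3879 CPM in NOD.B10 and 2291 to 4239 CPM in BL/10. Among 6 plasmacytoid dendritic cell markers, a cell type rich in Irf7 and Irf8, 0 passed (2 at an unadjusted p under 0.05 and 1 by DESeq2), and their sums overlapped at 192 to 243 CPM and 193 to 304 CPM. Of these, Klk1 was at 104, 20.6 and 4.15 CPM in BL/10 replicates 1 to 3, the order of the pancreas markers, and without it the sums were 178 to 226 CPM in NOD.B10 and 189 to 205 CPM in BL/10. Conventional dendritic cell markers overlapped at 205 to 224 CPM and 198 to 212 CPM, with 0 of 6 passing (2 at an unadjusted p under 0.05 and 0 by DESeq2). Macrophage and monocyte markers summed to 1884 to 2087 CPM and 1755 to 2054 CPM, so that their sums overlapped. Vcam1 was higher and Ly6c2, a marker of inflammatory monocytes, was lower (9.95 ± 0.59 CPM against 157 CPM in BL/10). The other 4 of 6 did not pass by edgeR, and DESeq2 called 1 of 6 higher and 2 lower. The value of Ly6c2 is therefore that of 1 gene and not of the list. Erythroid markers summed to 21135 to 37886 CPM and 22065 to 49115 CPM, with 0 of 6 passing (0 at an unadjusted p under 0.05 and 0 by DESeq2). No marker was at 0 in any library, and the part of these shifts in the IRF differences was not tested.

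For each member that passed, the tested genes with a mean of at least 10 CPM whose profile over the 6 libraries was nearest were found by the root mean square difference of log2 CPM centred on each gene's mean, among 10179 genes. This likeness uses the strain difference itself and is a description. For Irf7 these were Oasl2 (0.14 on the log2 scale), Nhsl2, Trem3, Ifih1 and Pglyrp1, of which Oasl2 and Ifih1 are interferon-stimulated genes, while Trem3 and Pglyrp1 are expressed in myeloid cells. For Irf9 they were Trim25 (0.04), an interferon-inducible ubiquitin ligase, Naip5, Gfm1, Rbm43 and Noc2l. For Irf1 they were Serpinb9 (0.03), an inhibitor of granzyme B, Zscan25, Cxcr3, Mplkip and Eogt, and Cxcr3 is a chemokine receptor of activated T cells. For Irf4 they were Zfp677 (0.05), Usp53, Lax1, Acta2 and Nipsnap1, and Lax1 is an adaptor of lymphocyte receptor signalling.

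**Figure D4:**
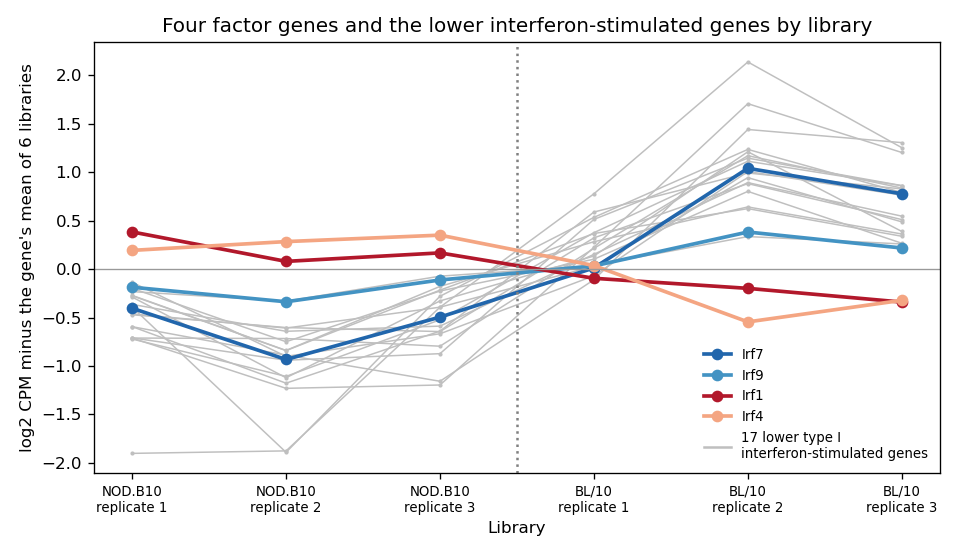
Log2 CPM of Irf7, Irf9, Irf1, Irf4 and the 17 lower type I interferon-stimulated genes in each library, as the difference from the gene's mean of 6 libraries. Irf7 ran from -0.93 in NOD.B10 replicate 2 to 1.04 in BL/10 replicate 2, and BL/10 replicate 1 lay at 0.01 for Irf7 and between the other libraries of both strains for all 4 factors.

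The promoters of the members and of the named target genes were searched for the letters of the elements that IRFs and STATs bind, because these are the sequences that tie the targets to the family. The windows are those of RefSeq on GRCm38.p6, 250 bases before to 50 after a start site, and all 8 members had one. The core of the interferon-stimulated response element was searched on both strands as GAAA, any 2 bases and another GAAA, and was found in 3.44% of 32851 promoters. The interferon-gamma-activated site bound by STAT proteins was searched as TTCNNNGAA, which is its own reverse complement, and was found in 8.30%. The 2 motifs can overlap.

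The STAT motif lay in the windows of Irf1, Irf8 and Irf2, and the response element core in that of Irf2. Neither was found in those of Irf3, Irf4, Irf5, Irf7 and Irf9, which says only that these letters are not in these windows. In Irf1 the STAT motif begins 90 bases before the start site, and in Irf8 a pair begins 171 and 153 bases before it. Capitals mark the motif, from chr11:53769909-53769947 (plus strand) for Irf1 and chr8:120736172-120736228 (plus strand) for Irf8, read 5′ to 3′.
Irf1: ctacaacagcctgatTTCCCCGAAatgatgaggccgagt
Irf8: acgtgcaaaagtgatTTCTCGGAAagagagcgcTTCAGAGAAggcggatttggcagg

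Of the 17 lower type I interferon-stimulated genes, 12 had a promoter sequence and 7 of these (58.3%) held the response element core, as did 5 of 15 (33.3%) among those not called. Of the 8 higher interferon-gamma and Irf1 targets, 7 had a sequence, 6 held the core and 5 the STAT motif, against 4 and 1 of 10 among those not called. The cores of Oas3 and Isg15, which were lower, and of Irgm2, Tgtp2 and Tgtp1 are shown because they carry the letters in targets that moved in opposite directions. Capitals mark the core, in Isg15 as overlapping copies. The positions are chr5:120777710-120777749 (minus strand), chr4:156200860-156200911 (minus), chr11:58214898-58214937 (plus), chr11:49064258-49064297 (minus) and chr11:48992299-48992338 (minus), in the order given.
Oas3: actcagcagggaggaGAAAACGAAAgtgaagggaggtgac
Isg15: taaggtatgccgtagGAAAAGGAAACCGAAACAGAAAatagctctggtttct
Irgm2: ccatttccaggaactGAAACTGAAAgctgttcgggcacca
Tgtp2: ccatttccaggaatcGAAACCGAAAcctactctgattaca
Tgtp1: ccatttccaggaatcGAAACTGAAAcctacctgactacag
Both Tgtp2, which was higher in NOD.B10, and Tgtp1, which was lower, held the core.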

How the data were processed

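Spleen RNA was sequenced as single-end reads by the authors, who deposited raw read counts per gene. Per the file headers, featureCounts (version 1.5.1) summed reads on exons to genes of Ensembl 84 (GRCm38). The count command used neither strand nor reads that map to several genes or places, and it also named libraries not analysed here. The submitters' processing notes name HISAT2 version 2.0.5, and the study's methods name Tophat2. No normalization was applied before deposit. Symbols came from GENCODE M21 and matched 47224 of 47729 identifiers.

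Counts were compared with R version 4.3.3, edgeR version 4.0.16 (filterByExpr, TMM, quasi-likelihood test, BL/10 as reference, Benjamini-Hochberg adjusted p under 0.05 over all tested genes), limma version 3.58.1 and DESeq2 version 1.42.0. SEs are the log2 fold change over the root of its F statistic. The procedure was tested on simulated counts. Promoters were RefSeq windows. Library totals were 15662712 to 18298451 counts.

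The members and gene lists were chosen with earlier results of these data known. Genes named were the members, up to 3 called genes per list and direction with the largest change, the 5 genes nearest to each called member, cell markers and genes whose exons overlap a member. One result is not reported here. Alternatives were other tools, scalings and filters, leaving out 439 hemoglobin, immunoglobulin and pancreas genes, a replicate block, an age term and leaving out each library.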

Additional observations from a re-analysis of the deposited data

How the results depend on the processing

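Between 1269 and 4107 of all tested genes passed when 1 library was left out, against 2656 in the full fit, and 943 passed with an age term. The members that passed numbered 4 in the full fit, 0 to 5 with 1 library left out (0 without NOD.B10 replicate 3 or BL/10 replicate 3, each with 4 at an unadjusted p under 0.05, and 5 without BL/10 replicate 1), and 0 by edgeR with the age term, where 1 had an unadjusted p under 0.05. Type I interferon-stimulated genes called lower numbered 10 to 22 with 1 library left out and 6 with the age term, against 17. Interferon-gamma and Irf1 targets called higher numbered 3 to 9 with 1 library left out and 1 with the age term, against 8. The age term leaves 1 BL/10 library at the age of the NOD.B10 libraries. Leaving out BL/10 replicate 1 removes that library, so strain and recorded age cannot be told apart in that fit. Irf5, which did not pass, had log2 fold changes of -0.15 to 0.023 with 1 library left out, the highest without BL/10 replicate 1, and Irf8, which did not pass, was at -0.0030 with the age term. Irf1, Irf4, Irf7 and Irf9 kept their direction in all 16 alternatives and were called by DESeq2, RLE size factors, upper-quartile scaling, the likelihood ratio test and limma-voom. With the replicate number as a block, Irf7 had a log2 fold change of -1.22 (edgeR adjusted p = 0.0363) and Irf9 lost its call (adjusted p = 0.0572), and 13 type I interferon-stimulated genes were lower and 10 interferon-gamma and Irf1 targets higher. Deviations of same-numbered libraries correlated at 0.07, 0.43 and -0.14, so the numbers were not taken to pair the mice, and not every library correlated best with its own number. With 3 libraries a strain, the interferon genes near 0 counts could not be compared.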
